A study of Mus musculus with 24 samples.

Results

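The beta-2 integrins were followed through 5 genes of the 45237 listed: Itgad, Itgal, Itgam and Itgax, which encode the alpha chains CD11d, CD11a, CD11b and CD11c, and Itgb2, which encodes CD18, the beta chain that all of them pair with. The genes were taken by their symbols. Itgad was chosen by its counts in these same libraries, above all those of the late RMA-KR group, so its values are described here without a test. The other 4 members joined it by gene family and were tested. All 5 were among the 17097 genes (37.8% of those listed) that passed a filter on low counts. The lowest count in any library was 35 for Itgad, 773 for Itgam and 3574 for Itgax, so that every member was counted in every group.

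NK cells were sorted from the spleens of wild-type C57BL/6J mice as live NKp46/NK1.1+ cells negative for T and B cell surface markers, and their mRNA was sequenced in 24 libraries. Control mice (4 libraries) were not treated. The other mice had received tumor cells into a vein, either RMA or RMA-KR. RMA is a T cell lymphoma line that, per the study, does not stimulate NK cells directly. RMA-KR is a clone of that line in which B2m is knocked out, so that MHC-I is lost, and the NKG2D ligand Rae1-β is added. The study reports activated NK cells in mice with either tumor, and a delay of this activation when the type I interferon receptor was blocked. Both tumor lines carried ZsGreen, and RMA-KR is 1 clone obtained by limiting dilution. The early groups were taken at day 2 (3 RMA and 3 RMA-KR libraries), the intermediate groups at day 4 for RMA (3) and day 7 for RMA-KR (5), and the late groups at day 9 for RMA (3) and day 14 for RMA-KR (3). Between the intermediate groups and between the late groups, tumor and day therefore cannot be told apart. The study counts the controls and late groups of this experiment in mice, but the labels do not tie a library to a mouse in any group, so the p-values measure the spread between these libraries.

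Integrins are pairs of an alpha and a beta chain that hold cells to other cells or to matrix, and they bind their ligands firmly only after signals inside the cell have extended them. CD11a with CD18 forms LFA-1, which binds the ICAM proteins and holds an NK cell to its target. CD11b with CD18 forms Mac-1, which binds complement fragments, fibrinogen and ICAM-1, and whose surface level together with CD27 is used to stage mouse NK cells, the mature ones being CD11b high. CD11c with CD18 binds complement fragments and fibrinogen. It is best known from dendritic cells and is also carried by mouse NK cells. CD11d with CD18 binds VCAM-1 and ICAM proteins and is best known in the mouse spleen from red pulp macrophages.

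Itgad lies on chromosome 7 of mm10 (128154376 to 128223816, plus strand), 3.72 kb after the end of Itgax (128129547 to 128150657) and 35.9 kb after the end of Itgam (128062640 to 128118491). Itgal lies on the same strand at 127296260 to 127335138, and Itgb2 lies on chromosome 10 at 77530252 to 77565708. The alpha chains share an inserted domain that holds the metal ion by which the ligand is bound. The coding sequence around the metal-binding motif is shown for the 4 alpha chains because it shows how closely they are related, with the bases of the motif in capitals. Each stretch of 57 bases lies in exon 6 of the transcript named, read 5′ to 3′ on the plus strand (GENCODE M21, GRCm38), at chr7:128181707-128181763 for Itgad, chr7:128076049-128076105 for Itgam, chr7:128133024-128133080 for Itgax and chr7:127301141-127301197 for Itgal.
Itgad-201: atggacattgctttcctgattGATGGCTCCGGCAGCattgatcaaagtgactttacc
Itgam-205: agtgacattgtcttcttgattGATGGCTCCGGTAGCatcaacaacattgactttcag
Itgax-201: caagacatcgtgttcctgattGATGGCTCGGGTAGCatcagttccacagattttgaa
Itgal-204: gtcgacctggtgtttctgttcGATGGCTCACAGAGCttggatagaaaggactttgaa
Over these 57 bases Itgam matched Itgad at 42, Itgax at 37 and Itgal at 35, and within the 15 bases of the motif the matches were 14, 13 and 11. Over the aligned coding sequence the order was different: Itgad was 73.8% identical to Itgax, 66.2% to Itgam and 59.8% to Itgal.

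The likeness of Itgad to Itgax bears on how well reads of 50 bases separate the genes. The coding sequence of Itgad holds 6 runs of 68 to 188 bases that are identical to Itgax. The longest runs across exons 12, 13 and 14 of Itgad-201 (chr7:128189340-128189358, chr7:128189445-128189587 and chr7:128189764-128189789) and is shown because any read inside it fits both genes equally well.
Itgad-201 and Itgax-201: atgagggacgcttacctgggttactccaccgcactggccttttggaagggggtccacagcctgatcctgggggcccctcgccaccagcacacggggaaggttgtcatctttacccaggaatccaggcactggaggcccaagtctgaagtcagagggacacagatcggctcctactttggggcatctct
Of the 4555 possible 50-base reads of Itgad transcripts, 384 (8.43%) were also found in Itgax, and 897 (19.7%) were found in some other gene, which left 3658 that belong to Itgad alone. How the authors treated reads that fit several places is not given in the sources used here. Itgam is limited in another way: only 1574 of its 5024 exon bases (31.3%) are free of the overlapping gene Gm49368 on the same strand, and the counting mode used drops a read that fits 2 genes. The Itgam counts therefore come from less than its full length, and its level is a lower limit. Comparisons of Itgam between libraries rest on the same bases in each library. Itgal had no 50-base read in common with another gene.

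The libraries held 5138651 to 14863500 counts, with a median of 10489204. Values below are CPM (a gene's count relative to the library's total) scaled by edgeR's TMM factors, called normalized CPM. Genes of the NK cell list summed to between 24600 and 43100 normalized CPM in every library, led by Gzma and Prf1. Granulocyte genes summed to at most 17.4, red blood cell genes to at most 3.83 and B cell genes to at most 58.0. T cell genes summed to 396 to 748, led by Trbc1 and Cd28. In 4 libraries (control 4 and RMA-KR intermediate 3, 4 and 5) the immediate early gene Fos lay at 67.3 to 88.3 normalized CPM, against 403 to 1910 in the other 20, and Jun and Junb were also lowest there. RMA early 1, RMA early 2 and RMA-KR late 3 stood apart on the leading principal components, whose values are not given here. Their median correlations of log2 CPM with the other libraries of their group were 0.830, 0.832 and 0.882. The lowest outside these 3 was 0.852, in RMA early 3. The main results that rest on the libraries low in Fos or on those that stood apart are also given without them.

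On a scale of normalized CPM per kb of exon, the control levels were 1220 for Itgb2, 282 for Itgal, 108 for Itgax, 52.4 for Itgam and 3.61 for Itgad. Counted over the exon bases free of Gm49368, Itgam stood at 167 per kb, above Itgax, so the order of these 2 genes depends on that length. Itgad was the lowest of the family in controls under either length. In late RMA-KR libraries the level of Itgad was 31.2 per kb, and that of Itgam was 42.4 over all its exons and 135 over the free bases.

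**Figure D1:**
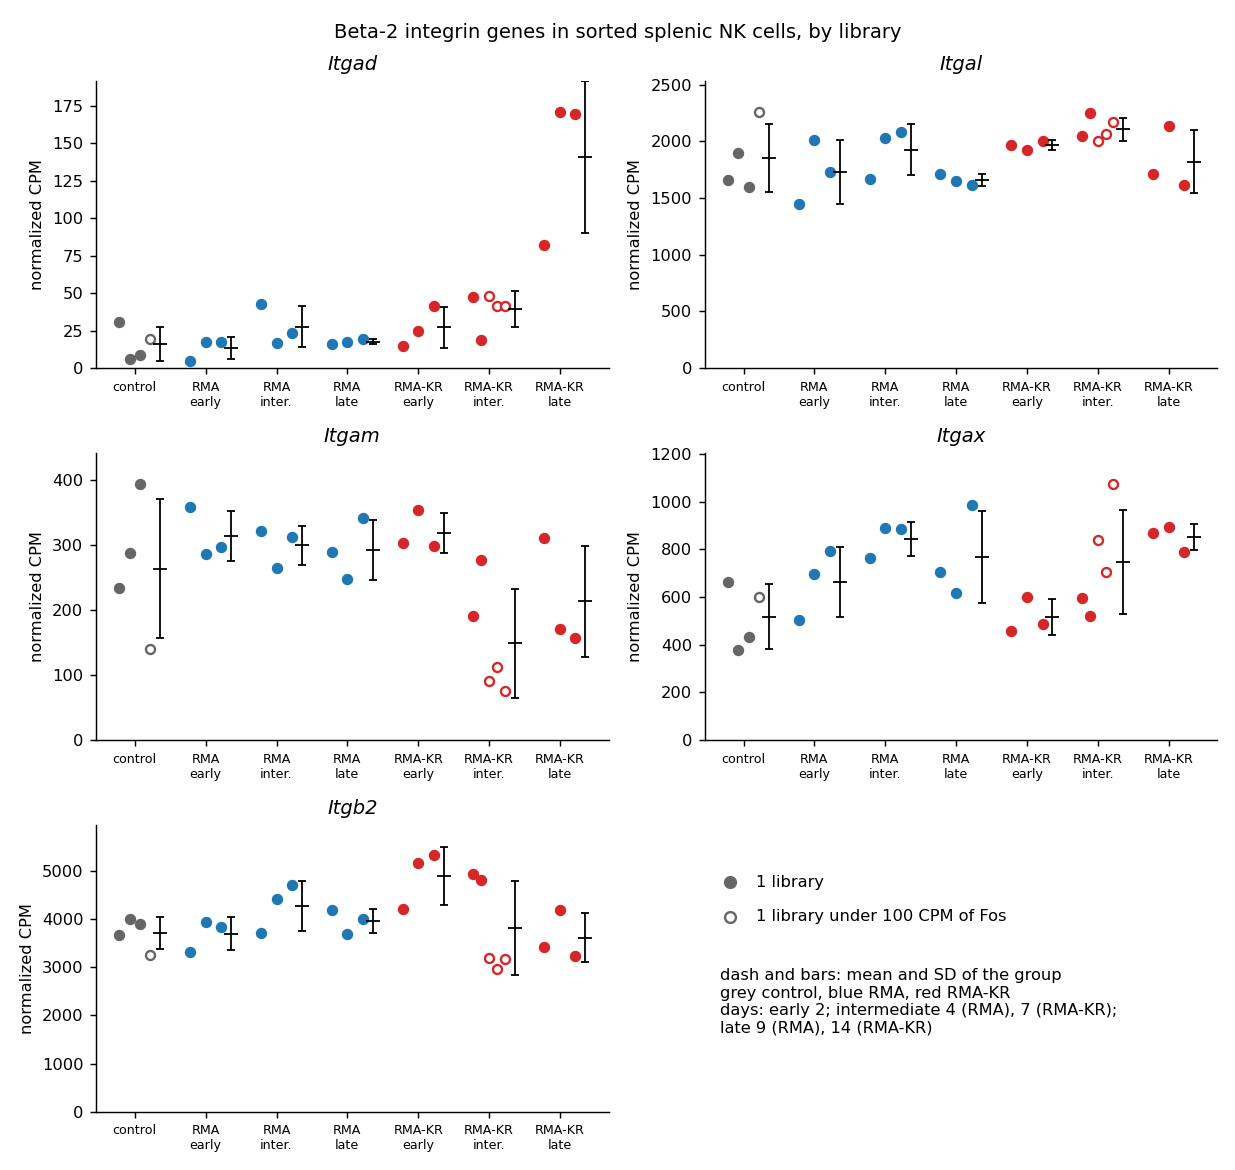
Normalized CPM (vertical axis, from 0) of the 5 genes in the 24 libraries, by group, with the mean and SD beside the points. Open points are the 4 libraries with low Fos. The 3 late RMA-KR libraries lie above all others for Itgad (82.1 to 171), and the open points are the lowest for Itgam.

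The data showed the family member with the lowest level, Itgad, at its highest in the group that had carried RMA-KR tumors for 14 days. In control libraries Itgad stood at 30.7, 6.27, 8.64 and 19.5 normalized CPM. In late RMA-KR libraries it stood at 82.1, 171 and 170 (mean 141 ± 50.9, SD, n = 3), from 922 to 2435 counts. Each of these values was above the highest value in any of the other 21 libraries, 48.1. The fitted difference from control was 3.12 on the log2 scale (SE 0.53), or 8.71-fold. In bulk RNA, a larger share of NK cells that express the gene and more transcripts per cell cannot be told apart.

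Late RMA libraries did not share this level. They stood at 16.1, 17.3 and 19.5 normalized CPM (mean 17.6 ± 1.76, SD, n = 3), from 186 to 187 counts, inside the range of the controls. Late RMA-KR exceeded late RMA by 3.00 on the log2 scale (SE 0.59), 7.98-fold, without overlap. The difference between late RMA and control was 0.13 (SE 0.51). With 1 library left out it ran from −0.18 without control 2 to 0.60 without control 1, and it was −0.11 without control 3. Without the libraries low in Fos it was 0.23 (SE 0.60).

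At the earlier stages Itgad lay lower and its groups overlapped. At day 2, RMA libraries stood at 4.67, 17.7 and 17.4 normalized CPM and RMA-KR libraries at 14.7, 25.1 and 41.8. The fitted differences from control were −0.28 (SE 0.52) and 0.75 (SE 0.51), and RMA-KR differed from RMA by 1.03 (SE 0.55). With 1 library left out these values ran from −0.54 to 0.24, from 0.31 to 1.27 and from 0.56 to 1.35. The first turned positive without control 1 (0.24) or RMA early 1 (0.15), the second was lowest without RMA-KR early 3 and highest without control 1, and the last was 0.61 without RMA early 1 and 0.56 without RMA-KR early 3. Without RMA early 1 and 2, which stood apart on principal components, a single early RMA library is left, assumed to vary like the other groups. Early RMA then differed from control by 0.14 (SE 0.67) and early RMA-KR from early RMA by 0.63 (SE 0.72). At the intermediate stage, RMA libraries stood at 43.0, 17.0 and 23.3 normalized CPM and RMA-KR libraries at 47.3, 18.5, 48.1, 41.6 and 41.4. The corresponding differences from control were 0.78 (SE 0.51) and 1.28 (SE 0.46), and RMA-KR differed from RMA by 0.50 (SE 0.50). With 1 library left out, the difference of intermediate RMA from control ran from 0.35 without RMA intermediate 1 to 1.25 without control 1. That between the intermediate tumors ran from 0.21 without RMA intermediate 2 to 0.93 without RMA intermediate 1, and was 0.24 (SE 0.66) without the 4 libraries low in Fos and 0.25 (SE 0.57) with a term for them. Of the 5 intermediate RMA-KR libraries, 4 were above all controls and 1, at 18.5, was inside their range.

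In the order of the 7 group means, from RMA early (13.3 normalized CPM) through control (16.3), RMA late (17.6), RMA-KR early (27.2), RMA intermediate (27.8) and RMA-KR intermediate (39.4) to RMA-KR late (141), each neighbouring pair below the last step differed by less than the larger SD of the pair and overlapped. At the last step the means lay 102 normalized CPM apart and the groups did not overlap, which describes the values by which Itgad was chosen. Leaving out each library in turn gave 2.84 to 3.62 for late RMA-KR against control and 2.83 to 3.27 against late RMA. The value for RMA-KR intermediate against control ran from 1.00 without control 2, which had the least Itgad of the controls, to 1.78 without control 1, which had the most. Without the libraries that stood apart on principal components, the late RMA-KR difference from control was 3.02 (SE 0.50).

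Because red pulp macrophages are the cell best known for CD11d in the spleen, their markers are given beside Itgad. The 22 macrophage genes summed to 42.1 to 85.7 normalized CPM in late RMA-KR libraries, to 42.7 to 74.3 in late RMA libraries and to 23.0 to 40.1 in controls, and the most abundant of them over all libraries were Cd68, which encodes a lysosomal protein, and Cd163, a hemoglobin scavenger receptor. Of the 22, 18 had a count in at least 1 control library. The number at the early, intermediate and late stage was 18, 12 and 14 for RMA and 13, 21 and 13 for RMA-KR. In late RMA-KR libraries, 9 of the 22 had 0 counts in all 3 libraries, where 3 counts would be 0.202 to 0.291 CPM before TMM scaling. Among these 9 were Adgre1 (the macrophage protein F4/80), Csf1r (the M-CSF receptor), C1qa, C1qb and Cd5l. Spic, the transcription factor of red pulp macrophages, had 2, 0 and 48 counts, against 922, 2435 and 1759 counts of Itgad in the same libraries. Vcam1 had 1, 0 and 35 counts. In RMA-KR late 3 both genes reached their highest level of all libraries. Spic stood there at 4.63 normalized CPM (mean of 0.0944 in controls) and Vcam1 at 3.37 (0.113). Cd68 stood at 78.0, 59.4 and 36.2 normalized CPM in late RMA-KR libraries 1, 2 and 3, against a mean of 11.1 in controls. The value of 78.0 was the highest of all libraries. Among these 3, the library with the least Itgad had the most Cd68. The second of these libraries held 171 normalized CPM of Itgad. Spic, Vcam1, Hmox1 and Slc40a1 had 0 counts in it, while Cd68 had 845, Lyz2 157 (more than 10 normalized CPM, against a mean of 0.621 in controls), Axl 89 (6.25, against 3.09) and Cd163 55 (3.86, against 10.7). T cell genes summed to 543 to 715 in late RMA-KR libraries, 578 to 748 in late RMA libraries and 461 to 585 in controls. Monocyte genes, 11 of 12 of which had a count in late RMA-KR libraries, summed to 1680 to 2020 there, 1440 to 1800 in late RMA libraries and 1460 to 1560 in controls. Over all libraries their sum had a median of 1520. Ccr2, a chemokine receptor, had a mean of 1210 and Ly6c2 a mean of 312, so that these made up most of the sum. The part of these cell types in the level of Itgad was not tested.

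Over the 9 comparisons, the share of all 17097 genes that passed an adjusted p of 0.05 (edgeR's quasi-likelihood test) was 0% for RMA early, 2.35% for RMA intermediate, 2.66% for RMA late, 0.0994% for RMA-KR early, 0.0175% for RMA-KR intermediate and 1.22% for RMA-KR late against control, and 0.339%, 0.643% and 0% for RMA-KR against RMA at the early, intermediate and late stage. Against this background, 0 of 36 tests of Itgal, Itgam, Itgax and Itgb2 passed, the lowest adjusted p being 0.116. The unadjusted p was under 0.05 in 8 of the 36, against 11.1% of all genes over the 9 comparisons together, and the 2 groups did not overlap in 4, against 11.5%. DESeq2 also called 0 of 36, with its default settings and with betaPrior=TRUE. Without a filter on low counts edgeR called 3 of 36. In the design tested, a p that misses the threshold does not show that levels were equal, and the intervals below say how large a difference the data allow.

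**Figure D2:**
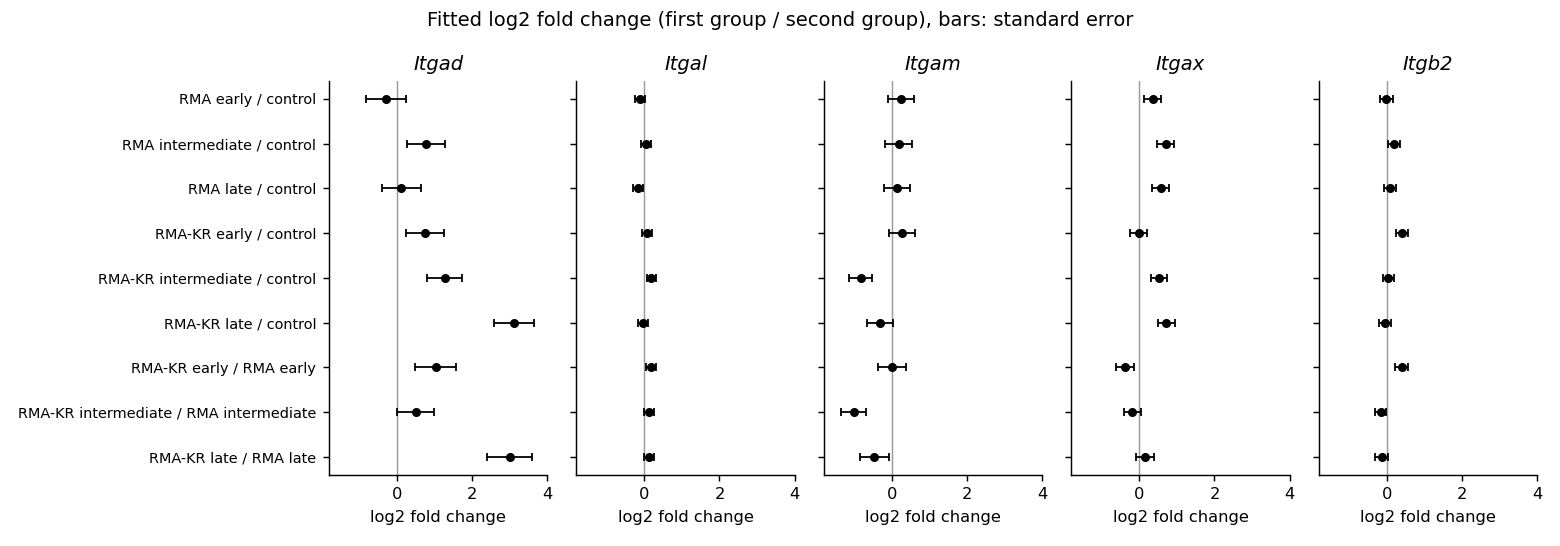
Fitted log2 fold change (horizontal axis) of each gene in the 9 comparisons, first group over second, with standard errors as bars. Itgad reaches 3.12 and 3.00 in the comparisons of late RMA-KR, while Itgal stays between −0.16 and 0.19 throughout.

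Itgax, the gene next to Itgad, stood higher in several tumor groups by a smaller factor. Control libraries stood at 661, 377, 433 and 600 normalized CPM. The late RMA-KR libraries, at 867, 895 and 789, were all above them, as were the intermediate RMA libraries at 761, 887 and 883. The difference from control was 0.72 for late RMA-KR (SE 0.23, 95% interval 0.25 to 1.18, edgeR adjusted p = 0.145) and 0.71 for intermediate RMA (SE 0.23, 95% interval 0.24 to 1.17, edgeR adjusted p = 0.116). The median of all genes in these comparisons was −0.18 and −0.29. In late RMA, at 704, 616 and 984, the difference from control was 0.57 (SE 0.23, edgeR adjusted p = 0.235) and the groups overlapped. Dendritic cell genes, a list without Itgax, moved with some of these groups: they summed to 118 to 125 normalized CPM in intermediate RMA, 67.1 to 136 in late RMA, 34.7 to 74.1 in late RMA-KR and 34.9 to 58.8 in controls. Over all libraries the sum had a median of 69.6, and Bst2 (mean 45.6, up to 108) and Zbtb46 (mean 17.8) made up most of it. In intermediate RMA, 6 of the 11 genes had 0 counts in every library (Clec10a, Cd209a, Ccr7, Flt3, Clec9a and Siglech). The part of dendritic cells in the level of Itgax was not tested.

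Late RMA-KR and late RMA differed in Itgax by 0.15 (95% interval −0.35 to 0.65), whereas the fitted value for Itgad in the same libraries was 3.00. With 1 library left out the Itgax value ran from 0.021 without RMA late 2 to 0.36 without RMA late 3, and was 0.043 without RMA late 1. Early RMA-KR libraries, at 456, 601 and 488 normalized CPM, gave a difference from control of −0.01 (95% interval −0.48 to 0.46). Intermediate RMA-KR libraries, at 596, 519, 840, 703 and 1075, gave 0.53 (SE 0.20, edgeR adjusted p = 0.729), or 0.35 without RMA-KR intermediate 5 and up to 0.67 without control 1. Without the 4 libraries with low Fos, 3 of which belong to that group, the intermediate value was 0.20 (SE 0.24). Intermediate RMA-KR differed from intermediate RMA in Itgax by −0.18 (95% interval −0.62 to 0.27), a value that ran from −0.34 without RMA-KR intermediate 5 to −0.04 without RMA-KR intermediate 2, and by −0.59 (SE 0.24, edgeR adjusted p = 0.469) without the libraries low in Fos. The intermediate RMA value passed the threshold in edgeR with a term for those 4 libraries (0.84, adjusted p = 0.0226), and so did that of late RMA-KR (0.85, adjusted p = 0.0376). Over the alternatives the adjusted p ran from 0.0136 to 0.297 for the first and from 0.0126 to 0.346 for the second.

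Itgam, on the other side of Itgax, had its lowest means in the intermediate and late RMA-KR groups (149 and 213 normalized CPM, against 263 in controls). Control libraries stood at 234, 287, 394 and 139 normalized CPM, and the 12 libraries of the RMA groups and the early RMA-KR group all lay between 248 and 358. Intermediate RMA-KR libraries stood at 191, 276, 90.2, 112 and 75.9, and late RMA-KR libraries at 311, 171 and 157. The fitted difference between intermediate RMA-KR and control was −0.82 (SE 0.31, 95% interval −1.46 to −0.19, edgeR adjusted p = 0.713) and that between intermediate RMA-KR and intermediate RMA was −1.01 (SE 0.33, 95% interval −1.69 to −0.32, edgeR adjusted p = 0.238). For late RMA-KR the difference was −0.31 from control (95% interval −1.04 to 0.42) and −0.46 from late RMA (95% interval −1.23 to 0.32). With 1 library left out the first ran from −0.70 without RMA-KR late 1 to −0.06 without control 3, and was −0.14 without RMA-KR late 2. The second ran from −0.84 without RMA-KR late 1 to −0.27 without RMA-KR late 3. Without the libraries apart on principal components they were −0.10 (SE 0.42) and −0.27 (SE 0.44). None of these values for Itgam passed the threshold.

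The intermediate Itgam values moved with Fos. The 4 libraries with low Fos, 1 control and 3 intermediate RMA-KR, had the 4 lowest Itgam levels of all 24, at 75.9 to 139 normalized CPM against 157 to 394 in the other 20. The control among them stood at 139, against 234 to 394 in the other controls. Without these 4 libraries, intermediate RMA-KR differed from control by −0.37 (SE 0.27, edgeR adjusted p = 0.75) and from intermediate RMA by −0.36 (SE 0.27, edgeR adjusted p = 0.762), and with a term for them by −0.46 and −0.40. Late RMA-KR, which holds no such library, then differed from control by −0.48 (SE 0.24, edgeR adjusted p = 0.445). The 4 libraries with low Fos also had the lowest sums of NK cell genes, at 24600 to 29240 normalized CPM against 29380 or more. They had the most genes with a count, 24621 to 27820 against at most 24234. B cell genes summed to 39.66 to 58.0 in the 3 intermediate RMA-KR libraries among them, against 6.455 and 18.55 in the other 2. RMA-KR late 2, without low Fos, reached 41.53. The part of handling, cell state or purity in the levels of Fos and Itgam was not tested. Leaving out 1 library, RMA-KR intermediate 2, gave −1.32 against intermediate RMA (edgeR adjusted p = 0.054).

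**Figure D3:**
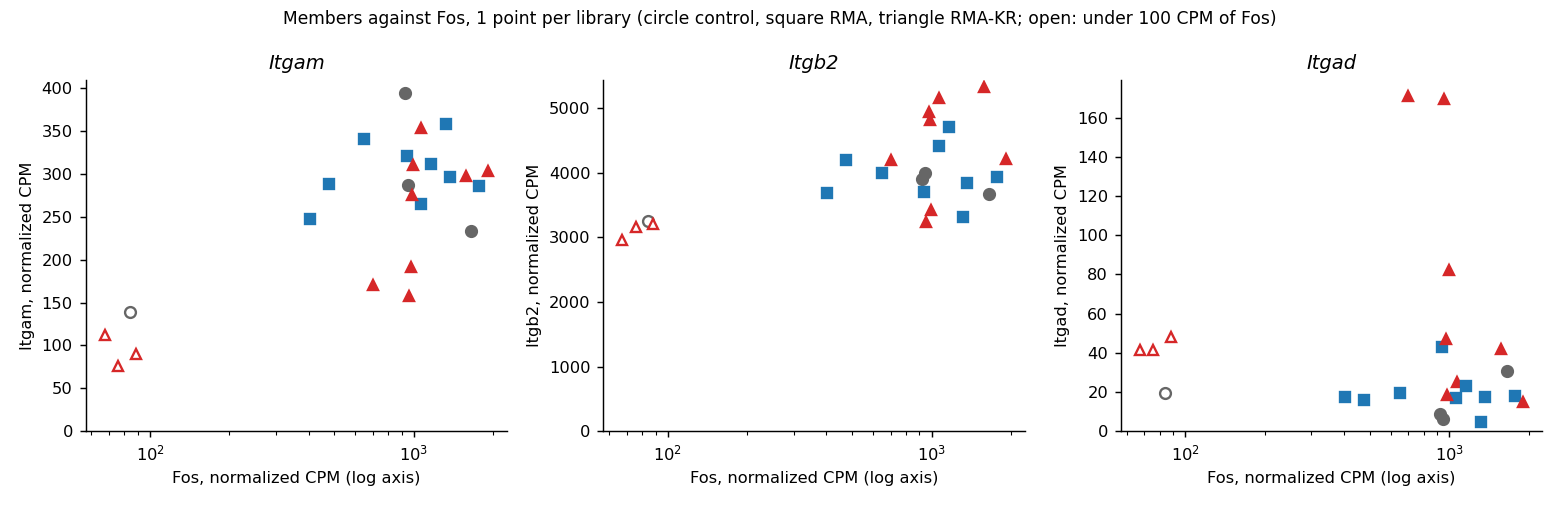
Normalized CPM of Itgam, Itgb2 and Itgad (vertical axes) against that of Fos (horizontal log axis), 1 point per library. The open points, under 100 normalized CPM of Fos, lie at 75.9 to 139 for Itgam and at 2965 to 3253 for Itgb2, but inside the range of the other libraries for Itgad.

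Itgal, the alpha chain of LFA-1, varied least. It ranged from 1446 to 2261 normalized CPM over the 24 libraries, a factor of 1.56, against 36.6 for Itgad, 5.19 for Itgam and 2.85 for Itgax. The difference from control lay between −0.16 (late RMA, 95% interval −0.43 to 0.12) and 0.19 (intermediate RMA-KR, 95% interval −0.06 to 0.43). With 1 library left out the first ran from −0.25 without control 3 to −0.08 without control 4, and the second from 0.12 without control 3 to 0.29 without control 4. Late RMA-KR differed from late RMA by 0.13 (95% interval −0.16 to 0.43).

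Itgb2, the common beta chain, ranged from 2965 to 5325 normalized CPM, a factor of 1.80. It was highest in early RMA-KR libraries, at 4211, 5162 and 5325, all above the controls at 3666, 4006, 3909 and 3253 and above early RMA at 3314, 3940 and 3844. The differences were 0.40 from control (SE 0.16, 95% interval 0.07 to 0.74, edgeR adjusted p = 0.517) and 0.41 from early RMA (SE 0.17, 95% interval 0.04 to 0.77, edgeR adjusted p = 0.362). In late RMA-KR libraries, at 3425, 4194 and 3239, Itgb2 differed from control by −0.04 (95% interval −0.37 to 0.30) while Itgad, one of its partners, stood at 8.71 times its control level. The intermediate RMA-KR libraries fell apart into those with low Fos, at 2965 to 3204, and the other 2, at 4944 and 4821. Without the 4 libraries with low Fos, intermediate RMA-KR differed from control by 0.36, against 0.04 with them.

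The balance between Itgad and its neighbours was followed as the log2 ratio of counts in each library, which needs no scaling between libraries. The ratio of Itgad to Itgam was −4.19 ± 1.52 in controls (SD, n = 4) and −4.04 ± 0.18 in late RMA (SD, n = 3). In late RMA-KR the 3 libraries stood at −1.92, 0.00 and 0.11, so that in 2 of them Itgad was counted about as often as Itgam. In intermediate RMA-KR they stood at −2.02, −3.90, −0.91, −1.43 and −0.87, the last 3 values being those with low Fos and low Itgam. The ratio of Itgad to Itgax was −5.23 ± 0.67 in controls, −5.42 ± 0.25 in late RMA libraries and −2.67 ± 0.64 in late RMA-KR libraries (SD, n = 4, 3 and 3), and the late RMA-KR libraries, at −3.40, −2.39 and −2.22, were above the other 21, the highest of which was −3.54. Since Itgam is counted over less than its length, the ratio to Itgam compares libraries and not the 2 levels.

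**Figure D4:**
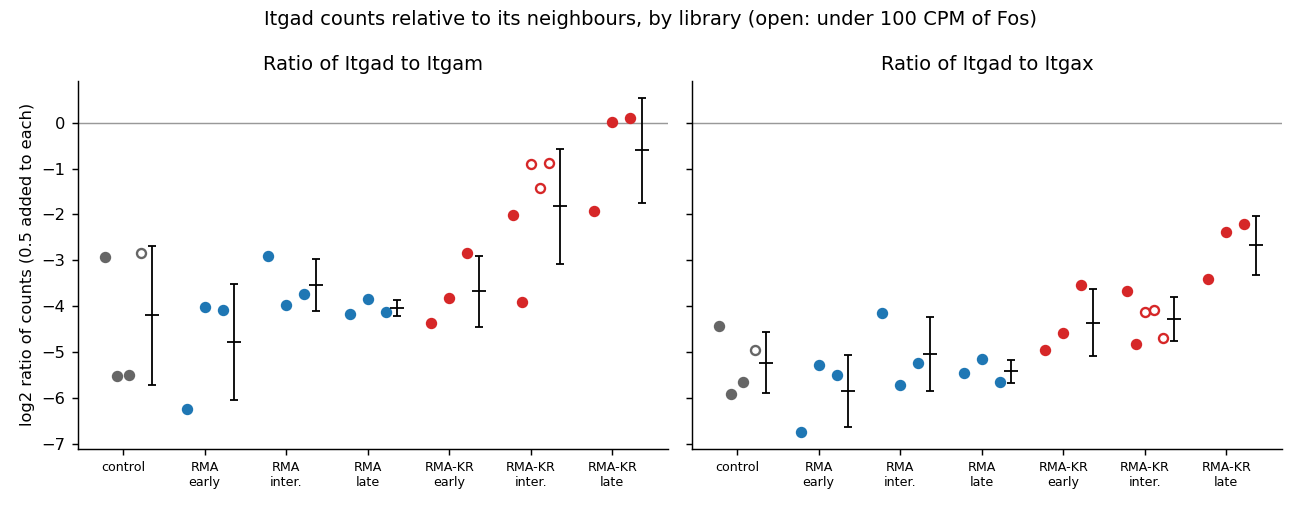
Log2 ratio of Itgad to Itgam and of Itgad to Itgax counts (vertical axis, 0.5 added to each count) in the 24 libraries, with the group mean and SD. Late RMA-KR libraries lie at −1.92 to 0.11 for Itgam and at −3.40 to −2.22 for Itgax.

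The same region of chromosome 7 was then examined for genes that moved with Itgad. Within 200 kb of Itgad the table lists 24 other genes, 13 of which were tested. Of these 13, 1 passed the threshold in 1 of the 9 comparisons, late RMA against control, where 2.66% of all tested genes were called. This was Pycard, which encodes the inflammasome adaptor ASC. It rose by 0.92 (edgeR adjusted p = 0.00748), a call that 16 of 17 alternatives kept. In the comparisons of late RMA-KR 0 of 13 were called by edgeR. Of all tested genes, 1.22% were called against control and 0% against late RMA. Among 6 neighbours with a mean of at least 10 normalized CPM (Pycard, Itgam, Itgax, 9130023H24Rik, Armc5 and BC017158), the difference of late RMA-KR from control ran from −0.31 to 0.72 and that from late RMA from −0.79 to 0.61. The largest of the first kind was that of Itgax. The neighbours with fewer counts had wide errors and reached −2.49 (SE 2.03, Tgfb1i1) against control and 4.29 (SE 2.31) against late RMA. The latter was 4931431B13Rik, which overlaps Itgad: its means were 2.13 normalized CPM in late RMA-KR, 0.0987 in late RMA and 1.94 in controls, and it differed from control by 0.14 (SE 1.84).

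Genes that overlap Itgad had few counts. On the opposite strand, 4931431B13Rik summed to 486 counts over the 24 libraries and Cox6a2, a subunit of cytochrome c oxidase, to 505, while Gm39091 and Gm44850 had 11 each. Gm17831, a processed pseudogene on the same strand as Itgad, had 27. The other low neighbours (Gm45205, Gm49368, Tgfb1i1 and Rgs10 among those tested, and Gm15533, Trim72, Gm5738, Gm22809, Slc5a2, Mir3103, Gm6916 and Gm15503 among those not tested) had at most 408 counts in all libraries together. Whether the counting used strand is not given in the sources used here, so reads of Itgad and of a gene on the opposite strand may not be separable where their exons overlap, which leaves 3620 of 4510 exon bases of Itgad.

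**Figure D5:**
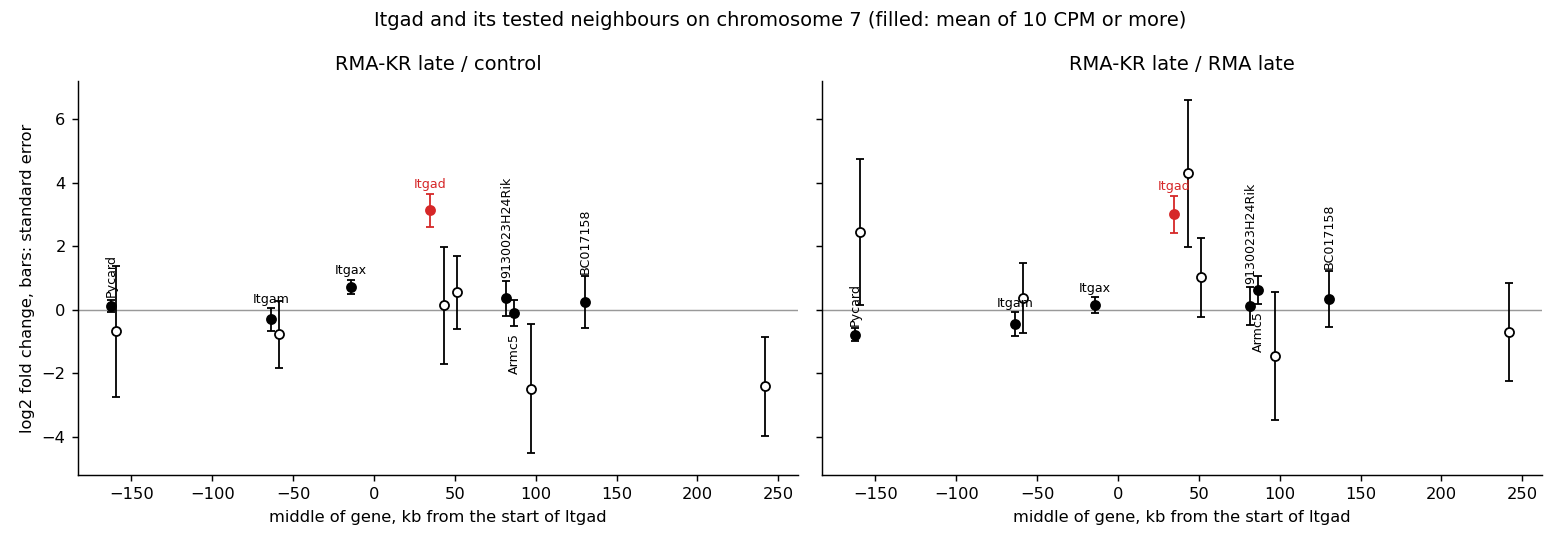
Log2 fold change with standard error (vertical axis) of Itgad and 12 tested neighbours in late RMA-KR against control and against late RMA, by distance of the middle of the gene from the start of Itgad in kb. Filled points have a mean of at least 10 normalized CPM, and among them Itgad is at 3.12 and 3.00 and the others at −0.79 to 0.72.

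As a description, the genes whose log2 CPM followed that of Itgad most closely over the 24 libraries were Ugt1a7c (Pearson r = 0.796), Pabpc1 (0.791), Pecam1 (0.751), Adipor2 (0.737), Mospd3 (0.727), Tbc1d4 (0.718), Rcsd1 (0.706), Gm4956 (0.704), Rilpl2 (0.692) and Ube2e3 (0.689). These libraries share their groups and their scaling, and 3 of the 10 were also among the 10 with the highest Spearman rho. Pecam1, which encodes the adhesion molecule CD31, had a mean of 118 normalized CPM in controls, 242 in the late RMA libraries and 380 in those of late RMA-KR. Tbc1d4, a Rab GTPase-activating protein, had 0.371, 3.20 and 21.7. Of the family itself, Itgax had an r with Itgad of 0.565, Itgal 0.223, Itgb2 −0.116 and Itgam −0.491.

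Other integrin chains were examined for comparison. Of 14 other alpha chains, 10 were tested and edgeR called 0 in any of the 9 comparisons, against at most 2.66% of all tested genes. The highest of them were Itga4, the VLA-4 alpha chain, at 955 normalized CPM in controls, and Itga2 (CD49b, a marker of mouse NK cells), at 212. Of 7 other beta chains, 6 were tested and 1 was called, in late RMA-KR against control, where 1.22% of all tested genes were called. This was Itgb3, the beta chain of the vitronectin receptor. It rose by 3.10 (SE 0.78, edgeR adjusted p = 0.0496), from a mean of 9.91 to 85.8 normalized CPM. The controls ranged from 1.35 to 25.6 and the late RMA-KR libraries from 60.1 to 132. The call stood close to the threshold and was kept in 9 of 17 alternatives, over which the difference ran from 2.26 to 4.28. In late RMA the mean of Itgb3 was 35.2, and late RMA-KR differed from late RMA by 1.29 (SE 0.81, edgeR adjusted p = 0.697). Itgav, which pairs with it, had means of 63.7 in controls and 59.5 in late RMA-KR.

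Of 13 genes in the table for ligands and partners of the beta-2 integrins, 6 were tested and 1 was called. In the comparison with that call, 1.22% of all tested genes were called. Cd226, which encodes DNAM-1, an activating receptor that associates with LFA-1 and is not itself a ligand, fell in late RMA-KR against control by 1.58 (SE 0.39, edgeR adjusted p = 0.0445), from 94.4 to 31.6 normalized CPM. It was called in 8 of 17 alternatives, with adjusted p from 0.000521 to 0.221. Icam1 had a mean of 297 in controls and 257 in late RMA-KR. Of 34 genes for the activation of integrins and their linkage to the cytoskeleton, 31 were tested and 3 different genes were called, all higher against control: 2 in intermediate RMA, 1 in late RMA, and 1 for late RMA-KR. Among all tested genes, 2.35%, 2.66% and 1.22% were called in these comparisons, and higher calls outnumbered lower ones there too (317 and 84, 366 and 89, and 152 and 56). Fermt3, which encodes kindlin-3, needed for the activation of beta-2 integrins, rose in late RMA-KR by 0.57 (SE 0.13, edgeR adjusted p = 0.0313). Actn4, an actin cross-linker, rose in intermediate RMA by 0.83 (edgeR adjusted p = 0.0218). Coro1a, an actin-binding protein of leukocytes, rose in intermediate RMA by 0.52 (edgeR adjusted p = 0.0475) and in late RMA by 0.58 (edgeR adjusted p = 0.0212). The directions held in all alternatives, while the calls were kept in 6 of 17 for Fermt3, in 12 for Actn4, and in 9 and 13 for Coro1a. The median of the 31 genes in late RMA-KR against control was 0.07, and that of all genes −0.18.

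Since Itgam is read as a marker of NK cell maturation, genes high in immature and in mature NK cells are given beside it. In intermediate RMA-KR all 8 immature genes had positive differences from control (median 0.82, that of all genes 0.01, 0 called by edgeR). All 8 were also positive against intermediate RMA (median 1.87, that of all genes 0.23, 1 called). The one called was Cd7, with a difference of 1.89 (edgeR adjusted p = 0.000335). Cd7 fell in intermediate RMA against control by 1.51 (edgeR adjusted p = 0.00198), and both calls were kept in every alternative. These comparisons share the intermediate RMA libraries. Cd27 itself differed from control by 0.10 (SE 0.25) in intermediate RMA-KR. Of the 8 mature genes, 1 of 8 had a positive difference from control in the same comparison (median −0.29, 0 called). Without the 4 libraries low in Fos, which leaves 2 of the 5 intermediate RMA-KR libraries, the immature genes were positive in 5 of 8 against control (median 0.19) and in 7 of 8 against intermediate RMA (median 0.52, 1 called). The mature genes were then positive in 6 of 8 against control, and their median turned from −0.29 to 0.25. Late RMA-KR had 3 of 8 immature genes above control (median −0.28) and 4 of 8 mature genes (median 0.01), with 0 called by edgeR in either list. Without the libraries apart on principal components the mature median was 0.24 and that of all genes −0.40.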

How the data were processed

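The mRNA of sorted splenic NK cells was sequenced by the authors as single-end reads of 50 bases (24 libraries, 7 groups taken from the labels). Per the submitters' processing notes and the study's methods, the authors trimmed reads with cutadapt 1.10, removed ribosomal reads with Bowtie2 2.2.8, aligned the rest to mm10 with STAR 2.5.3a and counted them per Ensembl gene with HTSeq 0.6.1p1 in union mode. The deposited values used here are counts per gene, without normalization. Of its 112 columns, 24 hold the counts used here, and 48 other columns of values per library and 29 columns of the authors' own comparisons (fold changes and p-values by DESeq2 1.16.1) were not. No row lacked a gene name.

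Counts were analysed with edgeR 4.0.16 in R 4.3.3: filterByExpr on the 7 groups (17097 genes), TMM scaling, 1 mean per group over all 24 libraries, robust quasi-likelihood fit, and p-values adjusted over all tested genes (Benjamini-Hochberg). A call is an adjusted p under 0.05. The standard error of a fold change was derived from its F statistic. With total counts of 5138651 to 14863500, the counting error of the members is small beside the spread between libraries, except for Itgad in late RMA. There Itgad had 186 to 187 counts and an SD of 9.96% of the mean, so counting error is a large part of the spread. A floor of 3 counts covers counting error only. Library pairs within a group differed by more than sampling noise (chi-square per degree of freedom from 17.9 to 95.2 over 31 pairs).

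Lengths, transcripts and exons were taken from GENCODE M21, in which all 45237 listed genes have the same positions as in the deposited table. Every 50-base stretch of the members' transcripts was compared with all transcripts. Coding sequences were aligned with Biopython 1.88. The metal-binding motif was found in the coding sequence by its amino acid pattern.

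The members and gene lists were chosen with earlier results of these data known. Named are the 5 members, the genes within 200 kb of Itgad (1 tested gene is not reported here), the 10 tested genes with the highest Pearson correlation with Itgad (log2 CPM, prior count 2), called genes of the 4 lists of integrin genes (at most 4 per list and comparison), and the 2 most abundant genes of marker lists. Other macrophage markers, the maturation genes Cd7 and Cd27, Itga2, Itga4, Itgav, Icam1, Fos, Jun and Junb were named after their values were seen. Of the marker lists, monocyte genes summed to 1100 to 2020 normalized CPM (led by Ccr2 and Ly6c2) and dendritic cell genes to 31.4 to 136 (led by Bst2 and Zbtb46).

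Alternatives were edgeR with size factors of DESeq2, DESeq2 1.42.0 with default settings and with betaPrior=TRUE (as in the study), no filter, a minimum of 10 counts per library, a block for replicate number, only the 2 groups compared, and each library left out in turn. Leaving out the 4 libraries under 100 normalized CPM of Fos, a term for them, leaving out the 3 libraries that stood apart, and the median transcript length were chosen after seeing the data, as was the repeat of the gene list counts without these libraries. The procedure was tested on simulated data.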

Additional observations from a re-analysis of the deposited data

How the results depend on the processing

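The higher Itgad of late RMA-KR was kept under every alternative run, at 2.63 to 3.62 on the log2 scale against control and 2.52 to 3.27 against late RMA, the lowest of the latter being 2.52 from DESeq2 with betaPrior=TRUE. Of 154 Itgad values under alternatives, 5 changed sign, all for early or late RMA against control: 4 with 1 library left out and 1, for early RMA (0.14), without the 3 libraries apart on principal components. Of 616 values of the other 4 members, 552 kept direction and side of the threshold, 58 changed sign (13 of 36 differences, the largest of them 0.184) and 6 passed the threshold. The cause of these changes was not tested. The replicate numbers did not pair the samples (same-number correlations of −0.118 to 0.202 over 64 pairs).

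Without a filter on low counts, Itgax was called in RMA intermediate (0.72, edgeR adjusted p = 0.0136) and RMA-KR late (0.73, edgeR adjusted p = 0.0126) against control, and Itgam in RMA-KR intermediate against RMA intermediate (−1.01, edgeR adjusted p = 0.00194). Itgax in RMA intermediate was also called with only the 2 groups compared (0.71, edgeR adjusted p = 0.0451) and with a term for low Fos (0.84), as was Itgax in RMA-KR late with that term (0.85).

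Signs changed as follows. For Itgb2 in RMA early, Itgax in RMA-KR early and Itgam in RMA-KR early against RMA early, the values were 0.067, 0.026 and −0.011 with DESeq2, 0.067, 0.025 and −0.012 with its size factors in edgeR, 0.067, 0.030 and −0.010 with betaPrior=TRUE, and 0.042, 0.0009 and −0.0055 with at least 10 counts in every library. Itgax in RMA-KR early was 0.0035 without a filter, and Itgb2 in RMA early 0.021 with only the 2 groups compared. Under the replicate block Itgam in RMA late was −0.019, Itgax in RMA-KR early 0.049, Itgal in RMA-KR late 0.025 and Itgad in RMA-KR late 3.26. The block changed no call of the 4 members and ended 1 among the other genes named, that of Fermt3 (0.55, edgeR adjusted p = 0.0958). Without the libraries apart on principal components, Itgb2 in RMA early was 0.068, Itgal in RMA-KR late 0.096 and Itgb2 there 0.080. Without the libraries low in Fos, Itgal in RMA early was 0.061, Itgam in RMA intermediate −0.0099 and in RMA late −0.048, Itgax in RMA-KR early 0.0998, Itgal in RMA-KR late 0.121 and Itgb2 in RMA-KR against RMA intermediate 0.197. With a term for them, Itgam in RMA intermediate was −0.059 and in RMA late −0.093, Itgb2 in RMA late −0.028, Itgax in RMA-KR early 0.124, Itgal in RMA-KR late 0.0099 and Itgb2 in RMA-KR against RMA intermediate 0.099.

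Leaving out 1 library gave, for Itgal, −0.205 to 0.039 in RMA early, −0.046 to 0.185 in RMA intermediate, −0.127 to 0.097 in RMA-KR late and −0.0005 to 0.223 in RMA-KR against RMA late. It gave for Itgam −0.065 to 0.407 in RMA intermediate, −0.087 to 0.385 in RMA late and −0.085 to 0.106 in RMA-KR early against RMA early. It gave for Itgax −0.124 to 0.158 in RMA-KR early, and for Itgb2 −0.050 to 0.093 in RMA early, −0.080 to 0.117 in RMA-KR intermediate and −0.125 to 0.082 in RMA-KR late.

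The number of genes called ranged over the alternatives from 0 to 91 in RMA early (0 as reported), 191 to 1246 in RMA intermediate (401), 143 to 1054 in RMA late (455), 0 to 212 in RMA-KR early (17), 0 to 79 in RMA-KR intermediate (3) and 82 to 663 in RMA-KR late (208), and from 0 to 437, 40 to 444 and 0 to 67 in RMA-KR against RMA (58, 110 and 0). At an unadjusted p under 0.05 edgeR gave 1204 genes in RMA early and 1249 in RMA-KR against RMA late. With the median transcript length in place of all exons, the control levels per kb were 4.23 for Itgad, 439 for Itgal, 75.0 for Itgam, 588 for Itgax and 1540 for Itgb2, which places Itgax above Itgal. The 14 ratios stayed within 1 SD with a prior count of 2.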
